A study of Homo sapiens with 6 samples.

Results

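Very long genes, those whose transcribed span in the deposited gene table reaches 300000 bases or more at a single locus, made up 776 of the 19655 genes of the table, and 366 of them had a mean of 1 CPM or more in the control libraries. CPM are counts scaled to a library total of 1000000. Levels given for genes and libraries also have TMM scaling unless stated otherwise (trimmed mean of M values, which evens out differences in composition between libraries). Floors, classes of mean NC level and median NC levels use CPM before that scaling. The 776 were taken from span alone. The floor of 1 CPM that leaves 366 used expression values, and those of the NC libraries only, so it favours genes that are high in NC. Levels were measured by RNA sequencing of total RNA from cells labelled HCT116, a human colorectal carcinoma line, in 3 control libraries (NC) and 3 libraries of cells transfected with an antisense oligonucleotide against the small nucleolar RNA SNORA67 (ASO). All cells were grown in serum-containing DMEM and the genotype label of the first group is control. What the control cells received, how much oligonucleotide was used and when cells were harvested were not stated in the sources used here. Whether the 3 libraries of a group are separate cultures is not stated either, and the p-values reflect the spread from library to library, which could be technical. The stated purpose of the series is to learn how SNORA67 acts in colorectal cancer cells.

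Most of a very long gene is intron. RNA polymerase II needs hours to cross such a gene, and a transcript is finished only if the polymerase stays on the template, early polyadenylation sites inside the introns are skipped and the supercoils ahead of it are released by topoisomerases. Many very long genes encode adhesion proteins, ion channels, scaffolds and signalling proteins, and several of the longest lie at common fragile sites, regions that break when replication is slowed. Reads of spliced RNA report the amount of finished transcript and not the rate at which a gene is made or degraded.

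Libraries held 49136502 to 54905215 counts. A sequenced fragment was taken as about 4 counts from the spacing of low values, although not every low count kept to such steps. On that assumption 12 counts, or 3 fragments, was taken as the smallest detected amount in a library. The label of the cells was compared with marker genes. Of 12 colon epithelial markers, 8 were under 1 CPM in NC, with CDX1 and CDH17 at 0 in all 3 libraries and EPCAM at 4.40 ± 1.17 CPM (SD, n = 3), while KRT8 and KRT18 stood at 1370 and 716 CPM (CPM before TMM scaling). Mesenchymal markers, 9 in number, summed to 2300 to 2570 CPM in NC and 3240 to 3710 CPM in ASO. Of these, COL5A1 (615 and 1270 CPM), COL1A1 (161 and 371 CPM) and FN1 (227 and 410 CPM) had the higher mean in ASO, whereas LUM, DCN and THY1 had the lower, and VIM stood at 1210 and 1280 CPM. Among the colon markers, LGALS4 and KRT19 were near 0 in NC and had means of 17.9 and 1.64 CPM in ASO. VIL1, also near 0 in NC, was uneven in ASO, at 10.7, 1.14 and 14.4 CPM. EPCAM, KRT8, CDX2 and GPA33 had the lower mean in ASO, EPCAM at 2.91 and KRT8 at 1160 CPM. The other colon markers had the higher mean in ASO, KRT18 only slightly (716 and 733 CPM). PTPRC and CD3E, which define leukocytes, were at 0 in NC. The markers thus go against the colon epithelial label in part, and the cells are called here by their label only. SNORA67 itself was not analysed here.

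The spans below are those of the table on hg38. The genes with the largest changes differ in the stretch just before their start, and 4 such stretches are shown to make the members concrete. They are the 250 bases before the RefSeq start (GRCh38.p14) of the largest rises and falls that have an entry there, which passes over SPON1, PDZD2 and SORCS2. Capitals mark GC boxes (GGGCGG on either strand), TATAAA and the AP-1 site TGANTCA on either strand. HIVEP3 and CREB5 rose, and PARD3B and IQGAP2 fell.
HIVEP3, chr1:42035935-42036184, minus strand: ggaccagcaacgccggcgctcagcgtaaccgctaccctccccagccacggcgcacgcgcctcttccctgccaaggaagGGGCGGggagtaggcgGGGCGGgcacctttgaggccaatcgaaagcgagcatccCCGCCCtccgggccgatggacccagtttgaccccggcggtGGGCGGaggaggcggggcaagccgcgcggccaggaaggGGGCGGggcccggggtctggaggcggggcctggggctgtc
CREB5, chr7:28412268-28412517, plus strand: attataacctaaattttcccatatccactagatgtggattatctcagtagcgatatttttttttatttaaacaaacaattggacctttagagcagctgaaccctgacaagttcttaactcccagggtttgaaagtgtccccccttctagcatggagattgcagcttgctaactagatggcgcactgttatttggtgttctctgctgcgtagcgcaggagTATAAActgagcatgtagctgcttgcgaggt
PARD3B, chr2:204545225-204545474, plus strand: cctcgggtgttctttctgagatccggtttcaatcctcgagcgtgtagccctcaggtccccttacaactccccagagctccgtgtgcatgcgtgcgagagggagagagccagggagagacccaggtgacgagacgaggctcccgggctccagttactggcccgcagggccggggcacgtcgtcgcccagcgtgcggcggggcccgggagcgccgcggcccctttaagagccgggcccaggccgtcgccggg
IQGAP2, chr5:76403035-76403284, plus strand: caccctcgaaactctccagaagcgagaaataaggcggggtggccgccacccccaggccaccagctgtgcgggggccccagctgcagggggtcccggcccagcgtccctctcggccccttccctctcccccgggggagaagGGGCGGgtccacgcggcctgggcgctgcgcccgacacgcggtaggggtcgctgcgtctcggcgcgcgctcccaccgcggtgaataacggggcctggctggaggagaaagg
The window of HIVEP3 is 74.8% G and C, with 27 CpG and 5 GC boxes, whereas that of CREB5 is 42% G and C, with 5 CpG and 1 TATAAA. The windows of PARD3B and IQGAP2, at 26 CpG each, hold no match and 1 GC box. For PARD3B and IQGAP2 the RefSeq start is also the start of the table's span, but for HIVEP3 it lies 117012 bases upstream of that span and for CREB5 113197 bases inside it, so those windows belong to 1 of several possible starts. Such a window was found for 303 of the 366 very long genes. A GC box was present in 57.4% of the 303 windows, against 69.7% of 3183 windows of genes of 30000 to 100000 bases and 56.7% of 15226 windows of all genes of the table. TATAAA was present in 6.60% of the windows of very long genes, 4.34% of the windows of the shorter class and 9.19% of all windows. Among very long genes called higher in ASO, 8 of 51 windows held TATAAA, 21 held a GC box and 4 held the AP-1 site. Among those called lower, 6 of 110 held TATAAA, 64 held a GC box and 4 held the AP-1 site. A match is a run of letters and was not tested as a site.

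Very long genes were more often lower than higher in ASO. Of the 366 at 1 CPM or more, all of which were tested, 132 (36.1%) were lower, 61 (16.7%) were higher and 173 did not pass an adjusted p of 0.05 in edgeR's quasi-likelihood test. Among the 11815 genes tested at 1 CPM or more in NC the same test called 22.7% lower and 20.6% higher (43.3% either way), and among all 14062 genes tested it called 19.1% lower and 26.8% higher, 46% in either direction. The share of very long genes called lower was thus above the background and the share called higher below it. The median log2 fold change of the very long genes was -0.34, with quartiles of -0.78 and 0.18, compared with -0.09 in the background at 1 CPM or more and 0.01 over all genes tested. Values below 0 were found for 250 of the 366 (68.3%). Falls of 2-fold or more were called for 49 very long genes, with a background of 4.54% at 1 CPM or more, and rises of that size for 29, with a background of 8.81%. The 3 ASO values all lay under the 3 NC values for 169 genes, against 30.5% of the background, and all above them for 74, against 24.6%.

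The direction was the same in each library. Relative to the mean of the NC libraries, the median log2 level of the 366 genes was -0.02, 0.05 and -0.03 for NC and -0.39, -0.26 and -0.33 for ASO (0.1 CPM added before the log). The groups did not overlap in this median, and its pooled SD between replicates was 0.0547. Genes of 30000 to 100000 bases at 1 CPM or more had medians of -0.21, -0.08 and -0.18 in the same 3 ASO libraries, each closer to 0 than that of the very long genes. Summed over all 776 very long genes, those under 1 CPM in NC included, the level was not lower. Very long genes held 1.223%, 1.256% and 1.201% of all counts in NC and 1.237%, 1.309% and 1.222% in ASO, shares that overlap. Without the 3 most abundant members the shares were 1.059%, 1.106% and 1.039% in NC and 1.069%, 1.148% and 1.077% in ASO.

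**Figure D1:**
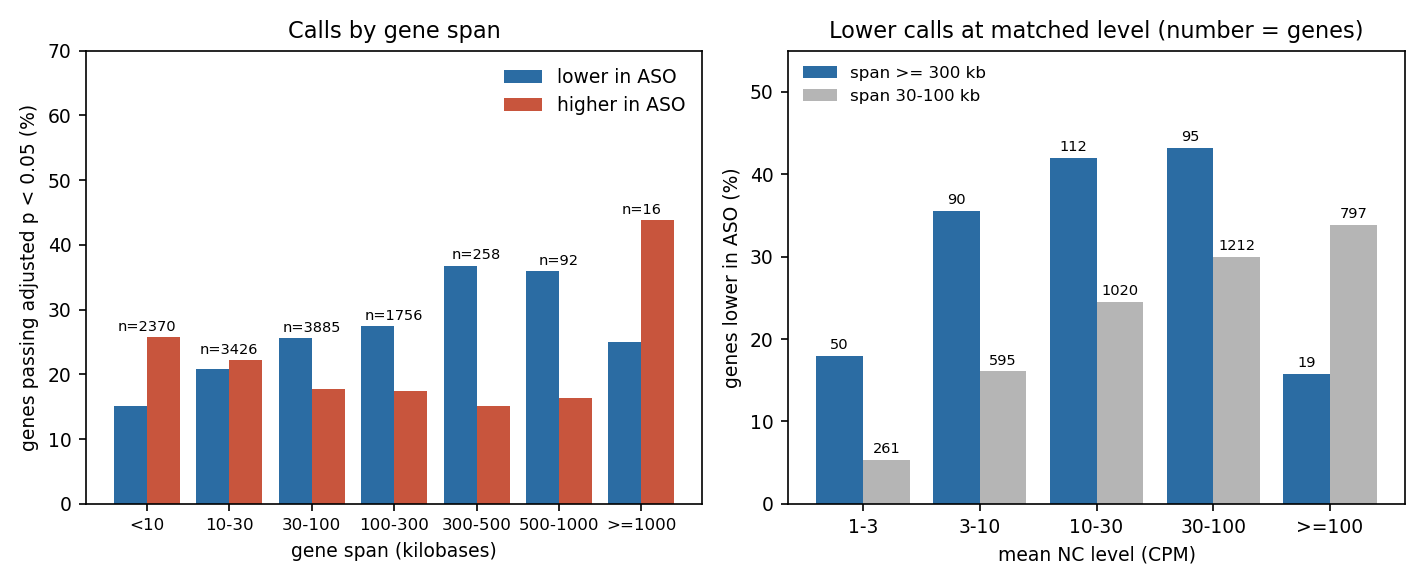
Share of genes at 1 CPM or more in NC that were called lower or higher in ASO (percent, edgeR adjusted p under 0.05) by gene span (left, kilobases), and share called lower by mean NC level for very long genes and genes of 30000 to 100000 bases (right), with the number of genes above the bars. The share called lower goes from 15.1% under 10000 bases to 36.8% at 300000 to 500000 bases, the longest class, of 16 genes, has 4 lower and 7 higher, and on the right the very long genes have the taller bar in every class under 100 CPM.

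Across span classes the share of genes called lower was 15.1% of 2370 genes under 10000 bases, 20.8% of 3426 at 10000 to 30000, 25.6% of 3885 at 30000 to 100000 and 27.4% of 1756 at 100000 to 300000. The share called higher went the other way, from 25.7% to 22.2%, 17.8% and 17.4%. Among very long genes, 95 of 258 at 300000 to 500000 bases were lower and 39 higher, and of 92 at 500000 to 1000000 bases 33 were lower and 15 higher. Without ASO library 3 the 33 became 21. The 16 genes of 1000000 bases or more, too few to read a trend from, split into 4 lower and 7 higher, with a median of 0.18. Within the 366, span had a Spearman correlation of -0.08 with the log2 fold change across genes, which are not independent replicates.

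At matched level the difference remained. Genes of 30000 to 100000 bases were weighted to the same mix of NC levels as the very long genes, in 5 classes of mean NC CPM divided at 3, 10, 30 and 100. So weighted, 21.7% of the 3885 tested were lower and 19% higher, with a median of -0.13, against 36.1%, 16.7% and -0.34 for the very long genes. The difference of medians was -0.21 on the log2 scale. Without the weighting, the gap between the 2 classes' median levels per library had a pooled SD between replicates of 0.0121. In every class under 100 CPM the median of the very long genes was the lower one. At 3 to 10 CPM it was -0.52 for 90 very long genes (32 lower, 11 higher) against -0.10, at 10 to 30 CPM -0.42 for 112 (47 lower, 15 higher) against -0.17, and at 30 to 100 CPM -0.29 for 95 (41 lower, 18 higher) against -0.19. At 1 to 3 CPM the medians were -0.33 for 50 (9 lower, 11 higher) and 0.21. The 19 very long genes at 100 CPM or more went the other way, with a median of 0.13 (3 lower, 6 higher) against -0.15. Single libraries moved some of these counts by more than 1.5 times. The 9 lower at 1 to 3 CPM were 3, 3, 4 and 2 without NC 1, NC 2, NC 3 and ASO 3, the 11 higher at 3 to 10 CPM were 7 without NC 3, and the 41 lower at 30 to 100 CPM were 27 without ASO 3. The weighted 21.7% was 13.6%, 13.2% and 13.7% without NC 1, NC 2 and ASO 3, while the share of very long genes called lower was 27%, 25.4% and 25.1%.

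**Figure D2:**
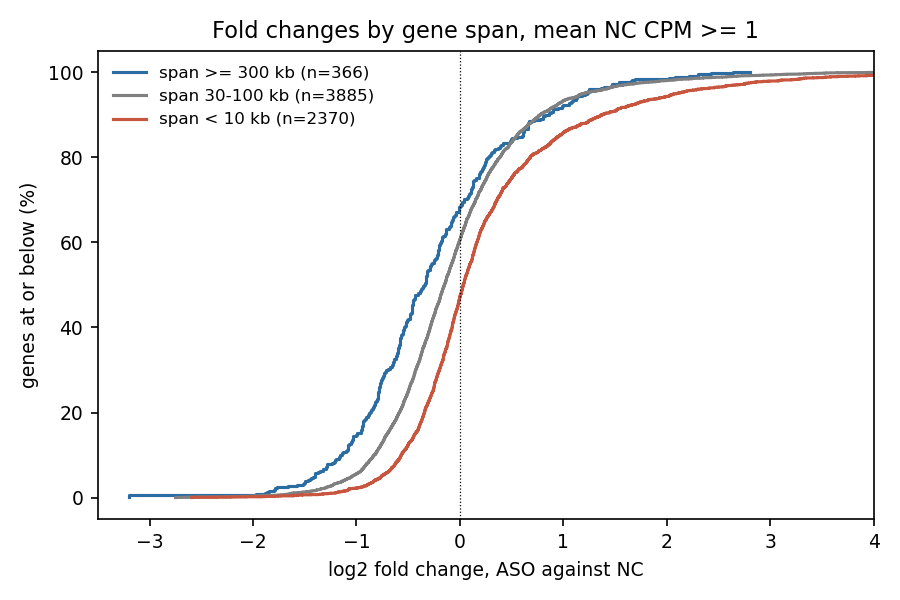
Cumulative share of genes against the log2 fold change (ASO over NC, edgeR) for the 366 very long genes, the 3885 genes of 30000 to 100000 bases and the 2370 genes under 10000 bases, all at 1 CPM or more in NC. The curve of the very long genes lies to the left over its lower and middle part, with medians of -0.34, -0.15 and 0.03 in that order.

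Very long genes differ from the shorter class in more than span. In GENCODE release 29, by the protein-coding transcript with the longest spliced length, they had a median spliced length of 6652 bases against 4166, 18 exons against 12, a longest intron of 117354 bases against 14821 and a spliced GC content of 44.3% against 45.9%. Their median NC level was 15.6 CPM. GC content moved with the result. Of 57 very long genes under 40% GC, 28 were lower and 4 higher, whereas of 71 at 50% or more 16 were lower and 20 higher, and the shorter class ran from 32.4% to 15.4% lower over the same range. The 28 and 4 under 40% GC were 18 and 2 without ASO 3, and the 28 were 17 without NC 2. At 40 to 45% GC 37.6% of 141 very long genes were lower against 32.2% of the shorter class, and at 45 to 50% the shares were 37.6% of 93 and 29.2%. The 53 genes behind the first of these shares became 34 without NC 2 and 35 without ASO 3. When level and GC content were matched together the difference of medians was -0.19, with 36.5% of 362 very long genes lower against 22.5%. The matched difference was -0.28 for level with spliced length and -0.30 for level, GC content and spliced length, an addition made after the data were seen.

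Within the very long genes the short messages fell most often. Of the 121 with a spliced length of 1246 to 5287 bases, 61 (50.4%) were lower and 9 (7.44%) higher, with a median of -0.58. Of the 120 at 5339 to 8133 bases, 31 were lower and 27 higher (median -0.21), and of the 121 at 8137 bases or more, 40 were lower and 25 higher (median -0.21). Without NC 2 the 61 became 40, and the 9 became 5 without NC 3 or ASO 3. Genes of 30000 to 100000 bases within the same bounds of spliced length had medians of -0.19, -0.07 and 0.00, with 27.9%, 20.9% and 20.5% lower. GC content hardly differed between the 3 groups of very long genes, with medians of 44.6%, 44.2% and 44.0%. Short messages also had the lower median in each of 3 GC ranges, -0.81 against -0.52 under 42%, -0.59 against -0.11 at 42 to 46% and -0.43 against -0.04 at 46% or more. Spearman's correlation with the log2 fold change was 0.24 for spliced length, 0.30 for spliced GC content, 0.10 for exon number and -0.03 for the longest intron over 362 very long genes, given as a description. SMYD3, a lysine methyltransferase with a message of 1548 bases from a span of 757970, was also on the list of fragile site genes below. It stood at 16.9, 14.7 and 15.2 CPM in NC and 6.48, 6.12 and 5.72 CPM in ASO, 2.55-fold lower (edgeR adjusted p = 0.00034).

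**Figure D3:**
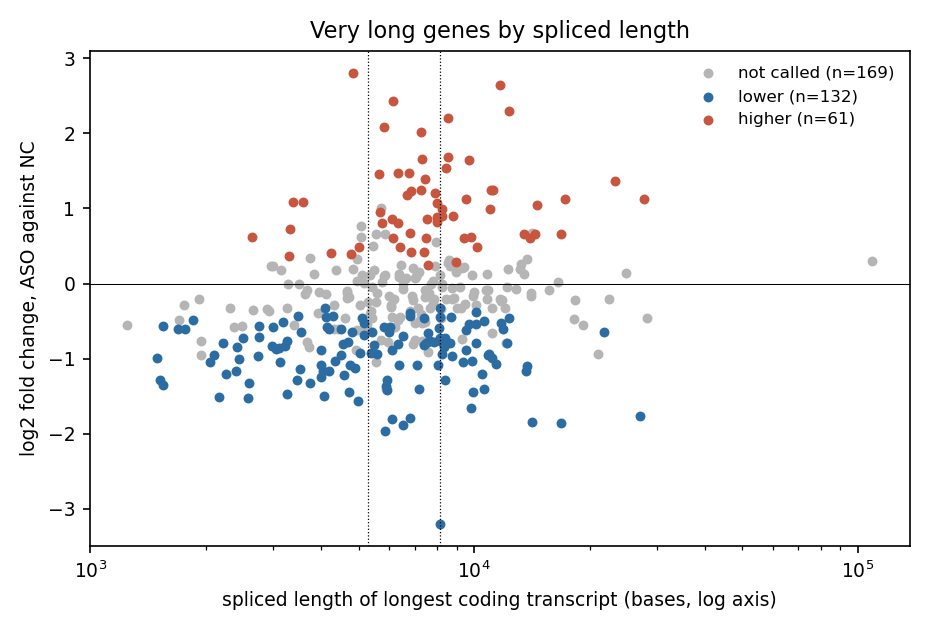
Log2 fold change (ASO over NC, edgeR) of very long genes at 1 CPM or more in NC against the spliced length of the longest coding transcript (bases, log axis), each point a gene, coloured by call, with dotted lines between the 3 groups of spliced length. Most genes under 5287 bases lie below 0, with a median of -0.58, and longer ones spread to both sides.

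The 10 largest rises with separate groups ran from 3.14-fold to 6.99-fold. SPON1 (chromosome 11, 13962723 to 14268133), which encodes the matrix protein spondin 1, stood at 1.45, 0.882 and 0.951 CPM in NC and 8.25, 7.08 and 7.66 CPM in ASO, a rise of 2.80 on the log2 scale (SE 0.26, edgeR adjusted p = 0.000125). PDZD2, a protein of several PDZ domains (chromosome 5, 31639131 to 32110932), stood at 5.13, 5.31 and 6.73 CPM in NC and 36.7, 36.5 and 33.8 CPM in ASO, 6.23-fold higher (edgeR adjusted p = 1.4e-05). HIVEP3, a zinc finger transcription factor (chromosome 1, 41506365 to 41918922), had 6.40, 6.34 and 6.62 CPM in NC and 35.6, 29.9 and 29.9 CPM in ASO, 4.93-fold higher. In these 3 genes every ASO library exceeded every NC library several times over. CREB5, a bZIP transcription factor, rose 4.62-fold from 3.53, 2.72 and 3.11 CPM to 14.7, 13.8 and 14.7 CPM. RUNX1, a transcription factor of blood formation (chromosome 21, 34787801 to 36004667), went from 22.7, 19.5 and 22.4 CPM to 106, 77.1 and 78.9 CPM, 4.05-fold higher (edgeR adjusted p = 4.5e-05). SORCS2, a sorting receptor, rose 5.38-fold, but its span overlaps another gene, and without a stated strand setting the reads of overlapping genes cannot be told apart. ROR1, a receptor tyrosine kinase-like protein that binds Wnt ligands, rose 4.24-fold, RBMS3, an RNA-binding protein, 3.23-fold, ADAMTS6, a secreted metalloprotease, 3.15-fold, and LAMA2, a laminin chain, 3.14-fold.

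The 10 largest falls with separate groups included both ankyrins named here, ANK3 and ANK2. ANK3 (chromosome 10, 60026298 to 60733490), the ankyrin that anchors channels at the axon initial segment, stood at 6.55, 6.26 and 5.51 CPM in NC and 1.21, 2.04 and 1.78 CPM in ASO, 3.64-fold lower (edgeR adjusted p = 0.000899). ANK2 (chromosome 4, 112818032 to 113384221), its relative in heart and brain, stood at 2.87, 3.32 and 3.37 CPM in NC and 0.819, 1.10 and 0.720 CPM in ASO, 3.62-fold lower (edgeR adjusted p = 0.00161). IQGAP2, a scaffold that binds actin and small GTPases (chromosome 5, 76403285 to 76708132), went from 5.55, 6.61 and 5.43 CPM to 1.43, 1.88 and 1.16 CPM, 3.93-fold lower, and shares its span with another gene. The NC and ASO values of these 3 genes lie far apart. ZBTB20, a zinc finger repressor, fell 3.41-fold from 10.8, 10.7 and 9.82 CPM to 1.75, 4.46 and 2.98 CPM. VAV3, a guanine nucleotide exchange factor, fell 2.96-fold from 43.0, 49.1 and 43.2 CPM to 14.1, 20.1 and 11.4 CPM. CCDC171 fell 3.68-fold, SEMA6D, a transmembrane semaphorin, 3.48-fold, and RNF150 3.16-fold. PARD3B, a cell polarity protein (chromosome 2, 204545475 to 205620162), had 0.906, 1.71 and 0.911 CPM in NC and 0, 0.320 and 0.0600 CPM in ASO, a mean under the detection limit, so no fold is given. Its edgeR adjusted p of 0.0317 went above 0.05 without NC 1, NC 2, NC 3 or ASO 3 and reached 0.113. NALCN, a sodium leak channel, stood at 1.62, 0.716 and 0.951 CPM in NC and 0.540, 0.160 and 0.240 CPM in ASO, and its edgeR adjusted p of 0.0427 went above 0.05 in the absence of any library but ASO 1 and reached 0.165.

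**Figure D4:**
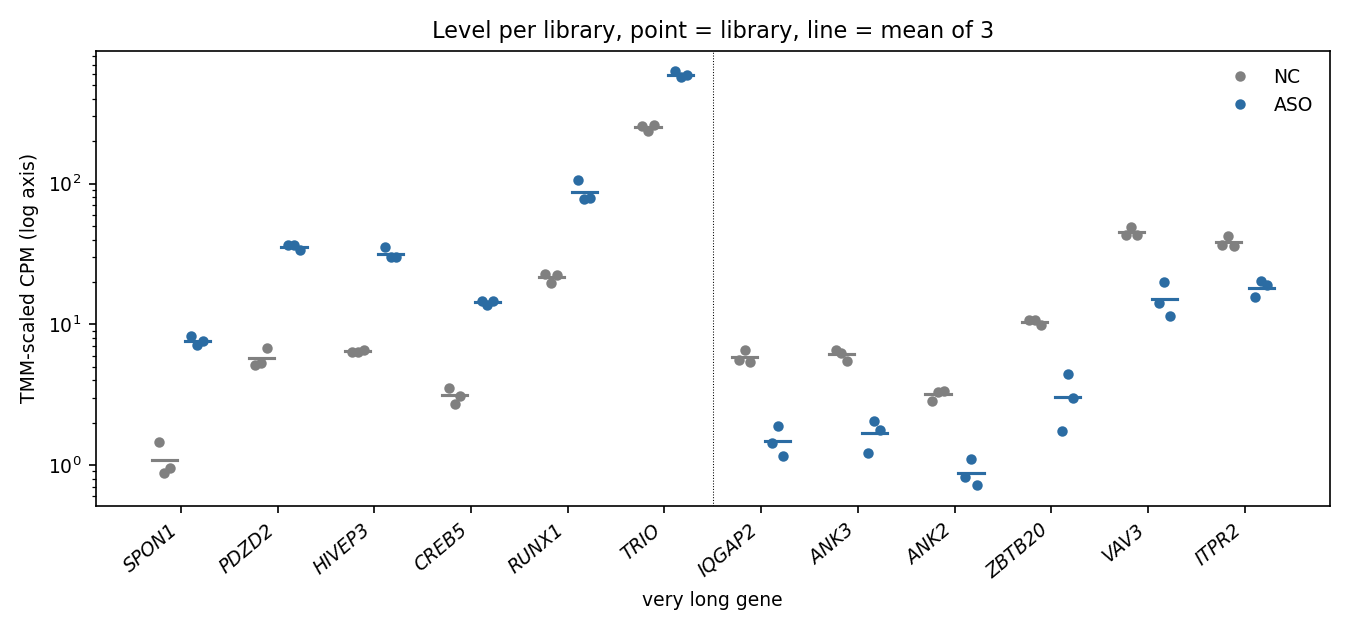
TMM-scaled CPM (log axis) of 12 named very long genes in each library, each point a library and each line the mean of 3, with genes that rose left of the dotted line and genes that fell right of it. In all 12 the 3 ASO points lie apart from the 3 NC points, as in RUNX1 (77.1 to 106 against 19.5 to 22.7 CPM) and ANK3 (1.21 to 2.04 against 5.51 to 6.55 CPM).

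The 366 genes were grouped by role, and a gene could fall in more than 1 list. Of all very long genes 36.1% were lower and 16.7% higher, and of all genes tested at 1 CPM or more 22.7% and 20.6%. The lists hold 13 to 46 genes, several have shares near these, and no difference between roles was tested. Adhesion and guidance receptors at 1 CPM or more numbered 15 of 85 in the table, of which 5 were lower and 3 higher (median -0.33). CDH13, a cadherin without a transmembrane part, fell 2.11-fold from 17.3, 17.7 and 16.9 CPM to 8.62, 7.44 and 8.48 CPM, and PCDH7, a protocadherin, rose 2.77-fold from 20.5, 19.0 and 21.4 CPM to 61.8, 61.2 and 45.7 CPM. Channels, receptors and transporters were also mostly under the floor, with 17 of 76 at 1 CPM or more, 6 lower and 2 higher (median -0.57). Without ASO 3 the 6 were 3, and the 2 were 1 without NC 1, NC 3, ASO 1 or ASO 3. The inositol trisphosphate receptors, which release calcium from the endoplasmic reticulum, moved in opposite directions. ITPR1 stood at 353, 349 and 354 CPM in NC and 500, 496 and 488 CPM in ASO, 1.40-fold higher (edgeR adjusted p = 0.000778), and ITPR2 at 36.3, 42.7 and 35.8 CPM in NC and 15.5, 20.3 and 18.9 CPM in ASO, 2.10-fold lower (edgeR adjusted p = 0.000906).

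Cytoskeleton and polarity scaffolds had 18 lower (40%) and 9 higher of 45 (median -0.22), a share near the 36.1% of all very long genes. NAV2, a microtubule-associated protein of growing neurites, rose 2.37-fold from 33.3 ± 3.06 to 79.0 ± 8.18 CPM, and SHROOM3, which drives apical constriction, rose 1.98-fold from 32.6 ± 2.17 to 64.6 ± 3.92 CPM. GTPase regulators went the other way in count, with 5 lower (16.1%) and 10 higher (32.3%) of 31 (median -0.11). TRIO, a guanine nucleotide exchange factor and a highly expressed member, stood at 255, 237 and 262 CPM in NC and 626, 569 and 591 CPM in ASO, 2.37-fold higher (edgeR adjusted p = 1.8e-05). ARHGEF28, another exchange factor, rose 2.77-fold, and ASAP1, an Arf GTPase-activating protein, rose 1.74-fold. Trafficking genes had 9 lower and 1 higher of 22 (median -0.48). EXOC6B, a subunit of the exocyst, which tethers vesicles to the plasma membrane, stood at 15.5, 15 and 11.1 CPM in NC and 5.48, 7.10 and 4.58 CPM in ASO, 2.42-fold lower (edgeR adjusted p = 0.00282). SNX29, a sorting nexin, fell 1.66-fold.

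Kinases, phosphatases and second messenger enzymes had 12 lower and 7 higher of 33 (median -0.33), and the 12 were 7, 4 and 4 without NC 1, NC 2 and ASO 3. PRKCE, protein kinase C epsilon, rose 2.75-fold from 25.6, 26.7 and 23.8 CPM to 73.0, 68.0 and 68.5 CPM. The phosphodiesterases, which break down cyclic nucleotides, were split. PDE4D stood at 35.6, 32.4 and 34.8 CPM in NC and 65.2, 77.9 and 61.1 CPM in ASO, 1.99-fold higher (edgeR adjusted p = 0.00054), and PDE1A at 36.3, 39.8 and 32.1 CPM in NC and 14.2, 20.7 and 14.6 CPM in ASO, 2.19-fold lower (edgeR adjusted p = 0.00179). Transcription and chromatin factors were balanced, with 12 lower and 12 higher of 46 (median -0.23). ZFHX3, a homeodomain and zinc finger factor, rose 2.18-fold from 44.6 ± 0.799 to 97.0 ± 2.24 CPM. RNA-binding proteins had 6 lower and 2 higher of 13 (median -0.22), and the 2 were 1 without NC 1. MSI2, a translational regulator of stem cells, fell 2.13-fold from 52.1, 83.7 and 68.0 CPM to 30.2, 37.7 and 28.0 CPM, and FTO, an RNA demethylase that overlaps another gene, fell 1.44-fold.

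Ubiquitin and proteolysis genes had 5 lower and 2 higher of 15 (median -0.58), and the 5 were 3 without NC 1, NC 2, ASO 1 or ASO 3. NEDD4L, a ubiquitin ligase that removes sodium channels from the membrane, rose 2.90-fold from 31.9, 26.8 and 31.0 CPM to 77.1, 92.1 and 91.4 CPM (edgeR adjusted p = 5.6e-05). Matrix and glycan genes were the list with a median above 0, at 0.20, with 5 lower and 5 higher of 15. EXT1, a heparan sulfate polymerase, rose 1.87-fold from 89.0 ± 3.31 to 166 ± 7.97 CPM, and FBN2, a microfibril protein whose span overlaps another gene, stood at 77.6, 78.5 and 78.3 CPM in NC and 38.9, 42.8 and 36.0 CPM in ASO, 1.99-fold lower (edgeR adjusted p = 0.00022). The summed mesenchymal markers given above were also higher in ASO, and their part in these values was not tested. FNDC3B, a membrane protein with fibronectin type III repeats, rose 2.31-fold from 118 ± 6.34 to 272 ± 17.9 CPM. Genes of common fragile sites had 8 lower and 3 higher of 20 (median -0.57). The 112 genes in no list had 47 lower and 10 higher (median -0.46). SPIDR, a scaffold of homologous recombination, was counted in the list of trafficking genes. It stood at 28.3, 32.2 and 29.4 CPM in NC and 12.3, 12.6 and 13.1 CPM in ASO, 2.36-fold lower (edgeR adjusted p = 0.000188).

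Among the most abundant and the longest members named here, SND1 alone was lower. IGF1R, the receptor of insulin-like growth factor 1, had the highest NC level, at 577, 547 and 601 CPM in NC and 736, 684 and 542 CPM in ASO, and its groups overlapped (edgeR adjusted p = 0.224, but 0.0439 without ASO 3). CTNNA1, the alpha-catenin of adherens junctions, stood at 540 ± 45.8 and 593 ± 16.4 CPM (edgeR adjusted p = 0.218), and MACF1, which links actin and microtubules, at 256 ± 6.48 and 282 ± 8.83 CPM (edgeR adjusted p = 0.149). SND1, a nuclease-like coactivator whose span overlaps another gene, fell 1.35-fold from 463 ± 24.5 to 344 ± 27.7 CPM. DMD, which encodes dystrophin over 2220390 bases, stood at 13.5, 14.6 and 13.3 CPM in NC and 23.5, 20.7 and 18.9 CPM in ASO, 1.52-fold higher (edgeR adjusted p = 0.00938). PDE4D and RBMS3, given above, are also among the 6 longest members at 1 CPM or more. CNTNAP2, a neurexin-like protein and the longest member at 2304996 bases, stood at 4.49 ± 0.371 and 4.87 ± 0.358 CPM (edgeR adjusted p = 0.634), and GPC5, a glypican, at 9.55 ± 1.13 and 11.3 ± 1.09 CPM (edgeR adjusted p = 0.26).

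Many of the very long genes were hardly expressed. Of the 410 under 1 CPM in NC, 209 had no count in any library and 275 none in any NC library, which at 12 counts a library allows a level of up to 0.229 CPM. In NC 415 to 420 of all 776 reached 12 counts, and in ASO 442 to 448 did. Genes of 30000 to 100000 bases with 12 counts also numbered more in ASO, 4455 to 4465 against 4152 to 4173. Of those 275 without a count in NC, 5 (1.82%) reached 12 counts in all 3 ASO libraries, against 79 of 988 (8%) of the genes of 30000 to 100000 bases. None of the 410 did the reverse. The 410 were picked for a low NC level with no limit on the ASO level, so these counts cannot be set against each other. PRDM16, a zinc finger methyltransferase of brown fat and blood stem cells (chromosome 1, 3069168 to 3438621), had 232, 288 and 227 counts in ASO, at least 21.2-fold higher than the detection limit in NC. The others were SYN3, a synaptic vesicle protein whose span overlaps another gene, with 32, 63 and 64 counts (at least 4.53-fold higher), KCNJ6, a potassium channel, with 33, 76 and 44, FSTL4, a follistatin-like protein, with 30, 40 and 69, and KALRN, an exchange factor related to TRIO, with 42, 19 and 15. These 5 were named after their values were seen. Of the 410, 74 passed the filter on low counts, partly through their ASO values, so their calls are not read.

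Factors that polymerases need on long templates were looked at beside the members, as a list of 49 genes of elongation, premature polyadenylation and topoisomerase action, themselves not members. Of these, 14 were lower and 10 higher (median -0.02), shares of 28.6% and 20.4% against a background of 22.7% and 20.6% at 1 CPM or more, and the 14 were 9 without NC 1, NC 2 or ASO 3. TOP1, which relaxes supercoils by single-strand cuts, stood at 226, 242 and 199 CPM in NC and 456, 534 and 474 CPM in ASO, 2.19-fold higher (edgeR adjusted p = 0.000107). Genes of the super elongation complex were mixed. ELL2, ELL and AFF4 rose 2.37-, 2.26- and 1.47-fold, AFF1 fell 1.5-fold, and CDK9, CCNT1, CCNT2 and ELL3 were not called. SFPQ, an RNA-binding protein bound to long introns, rose 1.53-fold. Further rises were those of SCAF4, ELOA, SUPT6H and SETD2. The type II topoisomerases were lower. TOP2B stood at 120, 155 and 107 CPM in NC and 53.7, 85.8 and 58.5 CPM in ASO, 1.93-fold lower (edgeR adjusted p = 0.0073), and TOP2A, which is most abundant in dividing cells, at 227, 322 and 218 CPM in NC and 69.5, 171 and 98.0 CPM in ASO, 2.27-fold lower (edgeR adjusted p = 0.0174, but 0.0912 without NC 2 and 0.0656 without ASO 3). CTR9, LEO1, RTF1 and WDR61, subunits of or partners in the PAF1 complex, fell 1.69-, 1.58-, 1.23- and 1.38-fold. PAF1 itself (edgeR adjusted p = 0.492) and CDC73 (edgeR adjusted p = 0.0738) were not called. THOC1 and THOC2 of the mRNA export complex THO, SUPT16H and SSRP1 of the histone chaperone FACT, SNRPA and SNRPC of the U1 particle, and XRN2 were the other falls. The calls of LEO1, RTF1, THOC1, SSRP1, SNRPA, SNRPC, SETD2 and SUPT6H were each lost without 1 or more single libraries, NC 1 or ASO 3 among them for all but LEO1, which lost its call without NC 2. Whether these levels bear on the very long genes was not tested.

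Of the 3 genes on each side of the limit of 300000 bases, SIPA1L3 alone was called (higher in ASO, edgeR adjusted p = 0.00202). COBL, NOS1AP and PCBP3 were not called (edgeR adjusted p = 0.366, 0.0701 and 0.245). Just inside the limit were COBL (300606 bases, 98.3 ± 6.01 in NC and 106 ± 4.46 CPM in ASO), NOS1AP (300784 bases, 2.57 ± 0.743 and 4.07 ± 0.300 CPM) and SIPA1L3 (301161 bases, 24.7 ± 3.09 and 43.6 ± 3.25 CPM). Just outside were PCBP3 (298760 bases, 0.192 ± 0.189 and 0.567 ± 0.293 CPM), ST18 (298967 bases) and SYT16 (299847 bases), the last 2 with too few counts to be tested.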

How the data were processed

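RNA sequencing gave 6 libraries, 3 NC and 3 ASO, grouped by the labels. The authors deposited estimated counts per gene, unscaled, which were whole numbers as deposited. FastQC, STAR, StringTie, DESeq2 and hg38 are named in the submitters' processing notes, without versions or roles. Annotation release, strandedness and the treatment of multi-mapping reads are not given here. Library totals were 49136502 to 54905215 counts; the detection limit of 12 counts covers counting error only.

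The 14062 genes kept by filterByExpr (minimum count 10, minimum total 15) were tested in R 4.3.3 with edgeR 4.0.16 (TMM, robust quasi-likelihood test, no covariates, Benjamini-Hochberg adjustment over all genes tested, threshold 0.05). Members are rows with a single locus and a span of 300000 bases or more; 18 rows with 2 loci were left out of span classes. Level matching weighted the comparison genes by the members in each class of mean NC CPM. Spliced features came from GENCODE release 29, which matched 764 of the 776 members; 661 spans differed from it by under 1%. Upstream windows came from RefSeq.

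Named genes are the 6 of highest NC level and the 6 longest, the 10 largest rises and falls with separate groups, the 3 smallest p-values each way, up to 3 called members per role list, the 3 genes on each side of the span limit and the called elongation factors; some genes the rule names are not reported here. The members and lists were chosen with earlier results of these data known. Alternatives were other scalings and filters, DESeq2 1.42.0, voom in limma 3.58.1, a replicate block, counts divided by 4, other floors, spans, strata and comparison classes, and leaving out each library. Tested on simulated counts for 11811 genes of this comparison, edgeR called 72 of 100 genes changed by 0.75 on the log2 scale, 100 of 100 changed by 1.5 and 3 of 11611 unchanged ones. The simulation gave every gene the same spread, the median dispersion, and changed far fewer genes than were called here. Its rates therefore cannot be taken as those of the real data.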

Additional observations from a re-analysis of the deposited data

How the results depend on the processing

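The 132 lower and 61 higher very long genes were 92 to 143 and 47 to 59 when single libraries were left out, and the median of -0.34 was -0.38 to -0.32. The difference from genes of 30000 to 100000 bases at matched level, -0.21, was -0.25 to -0.18 without single libraries, -0.23 and -0.16 with floors of 0.5 and 5 CPM, -0.19 for genes that overlap no other gene, -0.33 against genes of 10000 to 30000 bases and -0.12 against genes of 100000 to 300000 bases. It was -0.19, -0.28 and -0.30 with spliced GC content, spliced length or both matched as well, which was chosen after seeing the data. At 200000 bases or more, 252 were lower and 123 higher, with a median of -0.27, a difference of -0.13 and a gain in the share of counts of 0.096 points; at 500000 bases or more, 37 were lower and 22 higher, with a difference of -0.27. These counts cover more and fewer genes (781 and 108). Under 45% spliced GC, 81 were lower and 25 higher of fewer genes, with a median of -0.47 and a difference of -0.15. The difference was negative under every alternative run. The gain of 0.029 points in the share of counts was 0.003 to 0.046 without single libraries.

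Under DESeq2, limma-voom, the other scalings and filters, a floor over all 6 libraries, removal of mitochondrially encoded genes and counts divided by 4, lower calls numbered 129 to 138, higher calls 57 to 69, and the difference was -0.22 to -0.21. By the labels, samples with the same replicate number shared only that number. Their deviations from the group means correlated at 0.0525, 0.188 and 0.0152, and not every library correlated best with its own number. The 0.188 of NC 2 with ASO 2 was the largest value between any NC and any ASO library, and whether these libraries were handled together is not stated. With the replicate block, 146 very long genes were lower and 61 higher. The 14 lower elongation factors were 9 to 16 without single libraries and the 10 higher 9 to 11; the cause was not tested. Of 72 named genes with a call, 60 kept it in every setting, 12 lost it at least once and none reversed.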

Other observations

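Relatives among the very long genes, picked after their values were seen, moved alike in some families and apart in others. The formins DIAPH2 and DIAPH3, which nucleate straight actin filaments, were both lower (log2 fold changes of -1.04 and -0.65), and EXOC4, an exocyst subunit like EXOC6B, was lower at 75.7, 84.8 and 77.1 CPM in NC and 53.4, 59.2 and 42.6 CPM in ASO. The edgeR adjusted p of DIAPH3, 0.021, reached 0.0853 without NC 2 and was also above 0.05 without NC 1, ASO 1 or ASO 3. DIAPH2 overlaps another gene. DOCK1 and DOCK4, exchange factors for Rac, went apart. DOCK1 stood at 59.8, 52.0 and 52.7 CPM in NC and 39.8, 45.3 and 36.7 CPM in ASO (edgeR adjusted p = 0.0199, above 0.05 without NC 1, ASO 1 or ASO 3, at most 0.0914), and its span overlaps another gene. DOCK4 stood at 10.6, 12.7 and 11.8 CPM in NC and 19.7, 22.4 and 22.4 CPM in ASO, 1.84-fold higher (edgeR adjusted p = 0.00186).

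Of the very long genes that serve DNA replication and chromosome maintenance, 2 that were lower were also picked after seeing their values. POLA1, the catalytic subunit of the primase-associated polymerase, stood at 85.0, 105 and 81.9 CPM in NC and 42.6, 64.8 and 46.8 CPM in ASO, 1.77-fold lower (edgeR adjusted p = 0.00724). STAG1, a cohesin subunit, stood at 69.7, 79.8 and 66.0 CPM in NC and 43.8, 61.9 and 38.6 CPM in ASO, and its edgeR adjusted p of 0.0315 went above 0.05 without any 1 library other than ASO 2, at most 0.114; its span overlaps another gene. NC 2 and ASO 2 hold the highest value of their group in both of these genes. At the fragile sites, IMMP2L, a mitochondrial peptidase subunit, was lower at 2.45, 2.06 and 2.69 CPM in NC and 0.857, 1.10 and 1 CPM in ASO (edgeR adjusted p = 0.00913), and overlaps another gene, whereas WWOX, a WW-domain oxidoreductase, stood at 3.64 ± 0.897 and 2.47 ± 0.570 CPM (edgeR adjusted p = 0.143).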
